A study of Arabidopsis thaliana with 6 samples.

Results

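In shoots of Arabidopsis thaliana seedlings, 4 genes had a lower signal in replicate 1 than in replicates 2 and 3 in both genotypes of the study: AT5G40450, PDF2.1 (AT2G02120), AT1G69030 and AT1G74250. They were chosen from the measured values themselves. A probe set, the group of short probes that reads 1 transcript, was taken if it is named with 1 gene and reached a log2 signal of at least 5 on its highest array. Its value in replicate 1 also had to lie at least 1 log2 unit below the mean of replicates 2 and 3, here called the gap, in pvip1 pvip2 and again in Col-0, and the genotype means had to differ by less than 1. Of 13513 probe sets named with 1 gene, 5405 met the limits on level and genotype, and the 4 genes are 0.074% of those. Because the gap chose the genes, it is given below as a description without a test.

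The 6 arrays hold 3 samples of the pvip1 pvip2 double mutant and 3 of Col-0, the wild-type laboratory accession, each labelled as a biological replicate. PVIP proteins are PHD-finger proteins, also called OBERON proteins, that act in forming the plant's meristems. All seedlings grew on MS agar at 21 °C with 16 h of light and were collected 10 days after germination, after which the wild type lost its roots and the mutant was cut at its vestigial hypocotyl. The labels used here give neither the mutant alleles nor the number of seedlings per sample, and do not say what a replicate number shares between the genotypes.

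A replicate number can mark seedlings that were sown, grown or collected together. Transcripts that follow the time of day, the light a plant received, recent stress or growth are known to differ between such sets of seedlings even within 1 genotype. Of the 4 genes, PDF2.1 encodes a plant defensin, a small cysteine-rich secreted peptide of a family known for antifungal activity. AT5G40450 encodes a large plant protein that is known to act in the formation of bulbs, which are folds of the vacuole membrane. AT1G74250 encodes a J-domain protein, a class of partners that deliver substrates to Hsp70 chaperones. No role is given here for AT1G69030.

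The array labelled Col-0 replicate 1 goes against its label at a targeted gene. The PVIP gene listed as OBE1 (AT3G07780) had a log2 signal of 2.42 on it, close to the 2.53 to 2.61 of the mutant arrays, while Col-0 replicates 2 and 3 had 5.08 and 5.17. BCAT4, a glucosinolate gene, had 8.82 on the same array, 8.73 and 9.21 in Col-0 replicates 2 and 3, and 5.94 to 6.36 in the mutant. Gaps in pvip1 pvip2 do not use the array labelled Col-0 replicate 1 and are given separately throughout. The 3' probe set of the GAPDH control, a sign of RNA quality, was brighter than the 5' one by 2.31 log2 units in Col-0 replicate 3 and by 0.55 to 1.08 elsewhere, so the difference of replicate 1 from replicate 2 alone is given as well. Replicates 1 and 2 of both genotypes were washed on fluidics station 1 and replicates 3 on station 2, so a comparison of replicates 1 and 2 lies within 1 station. Each replicate 1 array had the lowest median log2 signal of its genotype, 4.573 against 4.608 and 4.682 in pvip1 pvip2 and 4.55 against 4.632 and 4.651 in Col-0. With the array medians set equal, 3 of the 4 genes still met the rule and AT1G74250 did not. The tissue label was checked with LHCB4.1, a light-harvesting protein of leaves, at 12.14 to 12.65 on all arrays, and with PYK10, a beta-glucosidase abundant in roots, at 11.76 to 11.80 in the mutant and 9.98 to 10.06 in Col-0. PYK10 had gaps of -0.0036 in pvip1 pvip2 and 0.066 in Col-0. In RNA of whole shoots, fewer cells of a type and less RNA per cell cannot be told apart.

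AT5G40450 had the most negative gap averaged over both genotypes. In pvip1 pvip2 its log2 signal was 3.05 in replicate 1, 5.12 in replicate 2 and 4.296 in replicate 3. In Col-0 it was 3.303, 4.288 and 4.85 in the same order. Both replicate 1 arrays lay below the other 4, and below 3.81, the level under which probe sets were left out of the fits on their mean. The gap was -1.66 in pvip1 pvip2, or 3.16-fold lower, and -1.26 in Col-0, or 2.40-fold lower. Within station 1, replicate 1 differed from replicate 2 by -2.07 in the mutant and by -0.98 in Col-0.

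PDF2.1 showed another shape. Its log2 signal in pvip1 pvip2 was 4.32 in replicate 1, 4.43 in replicate 2 and 6.79 in replicate 3. Col-0 gave 3.91, 4.78 and 6.04. In both genotypes replicate 3 was highest, and in the mutant replicates 1 and 2 lay close together. The gap was -1.29 in pvip1 pvip2 and -1.50 in Col-0, but replicate 1 differed from replicate 2 by only -0.11 in the mutant and by -0.87 in Col-0. The differences from replicate 3 were -2.47 and -2.13.

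AT1G69030 was the gene of the 4 whose replicate 1 values lay furthest above the level filter. In pvip1 pvip2 it stood at a log2 signal of 5.17 in replicate 1, 6.64 in replicate 2 and 6.12 in replicate 3, and in Col-0 at 4.50, 5.80 and 5.98. Replicate 1 was lowest in each genotype, and no replicate 1 value reached any of the other 4. The gap was -1.20 in the mutant, or 2.304-fold lower, and -1.39 in Col-0, or 2.62-fold lower. Against replicate 2 alone the differences were -1.46 and -1.30.

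AT1G74250 had the least negative gap in pvip1 pvip2, at -1.06, and the most negative in Col-0, at -1.51. Its log2 signals were 3.61, 5.33 and 4.01 in the mutant replicates 1, 2 and 3, and 2.82, 4.31 and 4.36 in those of Col-0. In the mutant, replicate 3 lay only 0.40 above replicate 1, and replicate 2 alone was high. In Col-0, replicates 2 and 3 were alike and replicate 1 lay about as far below each of them. Both replicate 1 values were under the level filter, so the size of this gap, like that of AT5G40450, depends on how the authors handled background. Against replicate 2 alone the differences were -1.72 and -1.49.

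**Figure D1:**
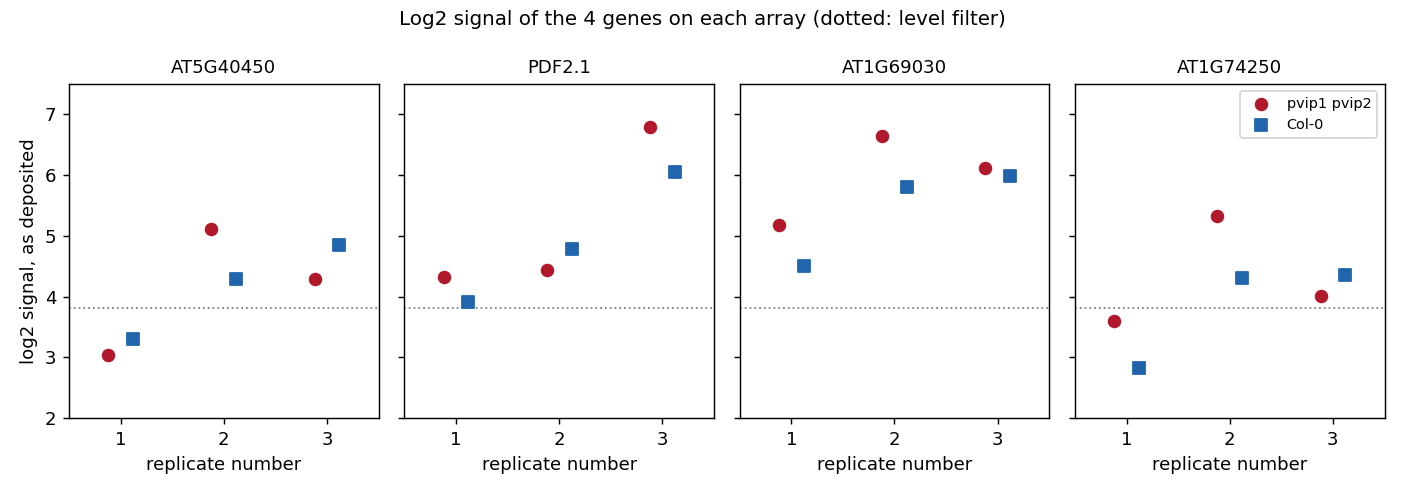
Deposited log2 signal (vertical axis) of AT5G40450, PDF2.1, AT1G69030 and AT1G74250 by replicate number (horizontal axis), with circles for pvip1 pvip2, squares for Col-0 and a dotted line at the level filter of 3.81. Replicate 1 is the lowest array of each genotype in every panel, while PDF2.1 separates replicate 3 from the rest, at 6.79 and 6.04.

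The 4 genes passed the level filter on their mean, and in each of them both replicate 1 arrays lay below the other 4. That separation follows largely from the rule, and it is common: both replicate 1 arrays lay below all others in 1005 of the 5405 eligible named probe sets, or 18.6%, and replicate 1 was lowest within each genotype in 32.9%. The rule asks in addition for the size of the gap, whose median over the 5405 was -0.13 in pvip1 pvip2 and -0.09 in Col-0. The limit in the mutant was the tighter one. Only 9 eligible probe sets had a gap of -1 or less in pvip1 pvip2, but 155 had one in Col-0. The Col-0 gap rests on the replicate 1 array whose OBE1 signal goes against its label. It also rests on replicate 3, where the GAPDH probe sets differed by 2.31. The part of either array in the 155 was not tested. In the opposite direction, 58 eligible named probe sets had a gap of at least 1 in both genotypes.

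**Figure D2:**
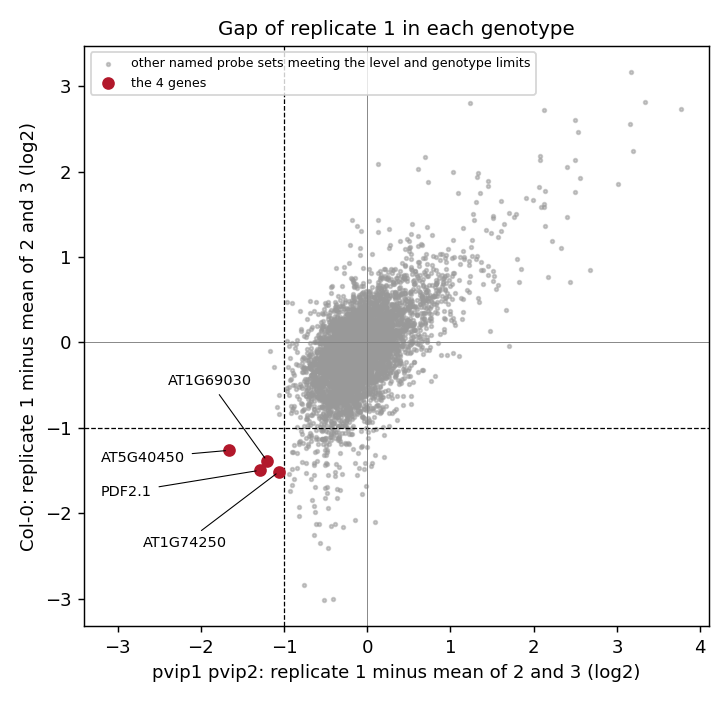
Gap of replicate 1 in pvip1 pvip2 (horizontal axis) and in Col-0 (vertical axis), in log2 units, for the 5405 named probe sets that met the limits on level and genotype, with dashed lines at -1. The 4 genes lie in the lower left corner, 155 points lie at or below the line for Col-0, and 9 at or to the left of the line for the mutant.

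The nearest genes outside the limit of -1 had gaps of -0.93 to -0.91 in pvip1 pvip2. COR27, a gene induced by cold and controlled by the circadian clock, had log2 signals of 6.20, 6.89 and 7.37 in the mutant and 5.98, 7.48 and 7.55 in Col-0, with gaps of -0.93 and -1.54. The gaps were -0.92 and -1.75 for AT5G04750, -0.91 and -1.67 for AT2G34300, and -0.91 and -1.29 for rpl36, a ribosomal protein gene of the plastid. On the inner side, AT1G74250 at -1.06 and AT1G69030 at -1.20 in the mutant were the closest to the limit. A further 2 named genes had a gap of -1 or less in both genotypes but differed by more than 1 between the genotype means. These were OSM34, an osmotin-like protein, with gaps of -1.01 and -1.49, and AT3G19850, with gaps of -1.08 and -1.97. They were named because they were so few, after their values had been seen. Another 6 probe sets met the limits on the values, with averaged gaps from -1.43 to -1.12, but are unnamed here and were not counted.

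For the gap the rule takes only the mean of replicates 2 and 3, and their difference was tested. The limit of 5 on the highest array can still touch this difference. AT5G40450 and AT1G74250 reached 5 only in pvip1 pvip2 replicate 2, and PDF2.1 only in replicate 3 of both genotypes. For these genes the test is therefore not independent of the rule. For all 4 genes, AT1G69030 included, the SE is not independent of it either. The SE draws on how far the gaps of the genotypes disagree, and the rule asked for a gap of -1 or less in both. Limma was fitted to all 6 arrays with genotype and replicate number as terms. Over both genotypes PDF2.1 stood at -1.81 for replicate 2 minus replicate 3 (SE 0.29, adjusted p = 0.3965, unadjusted p = 0.0003927), lower in replicate 2 in both genotypes. It did not pass the Benjamini-Hochberg threshold of 0.05 over 13648 tested probe sets. Leaving out the array labelled Col-0 replicate 3 gave a change of -2.17 and an adjusted p of 0.04619, and over its 12 alternatives the adjusted p ran from 0.04619 to 0.9998. The same difference was 0.64 for AT1G74250 (SE 0.34, adjusted p = 0.8445), 0.17 for AT1G69030 (SE 0.23, adjusted p = 0.9595) and 0.13 for AT5G40450 (SE 0.34, adjusted p = 0.9859). None of the 4 was called by limma, 1 of them had an unadjusted p under 0.05, and of all tested probe sets 2 were called, or 0.0147%, with 863 at an unadjusted p under 0.05. Replicates 3 alone were washed on station 2, so station and replicate number cannot be told apart in this comparison.

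AT5G40450 and AT1G69030 had opposite signs of this difference in the genotypes. For AT1G74250, replicate 2 exceeded replicate 3 by 1.32 in pvip1 pvip2, while the Col-0 arrays were nearly equal, at -0.05. AT5G40450 gave 0.82 and -0.56, and AT1G69030 gave 0.52 and -0.18. PDF2.1 was lower in replicate 2 than in replicate 3 in both, at -2.36 and -1.26.

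Between the genotypes the 4 genes lay close together, which the rule required. Means were 4.15 ± 1.04 in pvip1 pvip2 and 4.15 ± 0.78 in Col-0 for AT5G40450 (SD, n = 3 each). PDF2.1 had 5.18 ± 1.398 and 4.91 ± 1.07, AT1G69030 had 5.98 ± 0.74 and 5.42 ± 0.81, and AT1G74250 had 4.31 ± 0.90 and 3.83 ± 0.87. In each case the spread over replicates exceeded the difference between the genotypes, and the arrays of the genotypes overlapped. The fitted changes, mutant minus Col-0, were 0.01 (SE 0.56), 0.27 (SE 0.74), 0.55 (SE 0.47) and 0.48 (SE 0.54). These SEs include the difference between replicate numbers that chose the genes. With replicate number as a block they were 0.28, 0.23, 0.19 and 0.28 in the same order. Without the block none of the 4 was called, against 20.5% of the 13648 tested probe sets. Nothing is read from that count because the rule capped this difference.

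Compared within a replicate number, AT1G69030 was higher in pvip1 pvip2 in each of the 3 pairs, by 0.68, 0.84 and 0.14 in replicates 1, 2 and 3. AT1G74250 differed by 0.78 and 1.01 in replicates 1 and 2 but by -0.36 in replicate 3. PDF2.1 gave 0.41, -0.35 and 0.75, and AT5G40450 gave -0.26, 0.83 and -0.55. In the limma fit with replicate number as a block, the lowest adjusted p of the 4 was 0.06522, for AT1G69030. Of all tested probe sets 30.3% were called. Nothing is read from the block values of the 4 genes. The rule capped their genotype difference and asked for the gap in both genotypes, and the disagreement of the gaps enters the block SE. Leaving out a replicate 1 array raises the mean of its genotype by construction, since the rule asked for a low value there. The genotype change without the array labelled Col-0 replicate 1 was -0.41 for AT5G40450, -0.23 for PDF2.1 and -0.02 for AT1G74250. Each had its sign turned. The change of AT1G69030 was 0.09018 without that array, 0.2227 without pvip1 pvip2 replicate 2, 0.9543 without pvip1 pvip2 replicate 1 and 0.8294 when Col-0 replicate 3 was dropped, against 0.55 with all arrays, and it was called in none of these fits.

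PDF2.1 lies in a row of defensin genes on its chromosome, which allowed its pattern to be set beside that of close relatives. These were picked after the values had been seen. LCR69 (PDF2.2) had log2 signals of 9.05, 9.49 and 8.44 in pvip1 pvip2 and 10.37, 10.79 and 11.10 in Col-0. LCR68 (PDF2.3) had 8.53, 8.52 and 7.71 in the mutant and 8.81, 9.24 and 9.23 in Col-0. In the mutant both had their lowest value in replicate 3, the array in which PDF2.1 was highest. Col-0 did not show this: LCR69 was highest in replicate 3, as PDF2.1 was, and LCR68 was lowest in replicate 1. LCR72 (PDF2.6) lay between 2.13 and 2.64 on all arrays, at the bottom of the scale. Gaps in pvip1 pvip2 were 0.09 for LCR69, 0.42 for LCR68 and 0.19 for LCR72, and those in Col-0 were -0.57, -0.43 and -0.27.

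Of these relatives, LCR69 was lower in pvip1 pvip2 at -1.76 (SE 0.29, limma adjusted p = 0.004843), and LCR68 had a change of -0.84 (SE 0.25, adjusted p = 0.05167), which passed under the replicate block (adjusted p = 0.0339). PDF2.1 stood at 0.27 (SE 0.74), and the difference between the genes was not tested. Of the 12 other named genes of the defensin and LCR family, 7 stayed under a log2 signal of 5 on every array, so they could not meet the rule. In the other 5, gaps ran from -0.33 to 0.42 in pvip1 pvip2 and from -0.57 to 0.33 in Col-0. Of these, PDF1.4, LCR69 and PDF1.2 could not meet the rule either. Their genotype means, mutant minus Col-0, differed by 1.46, -1.76 and -1.48, beyond the limit of 1. Among the 7 dim ones LCR67 (PDF1.1) had a gap of -1.06 in pvip1 pvip2, where its signal was 3.08, 3.39 and 4.88, and it stayed between 2.36 and 2.84 in Col-0.

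**Figure D3:**
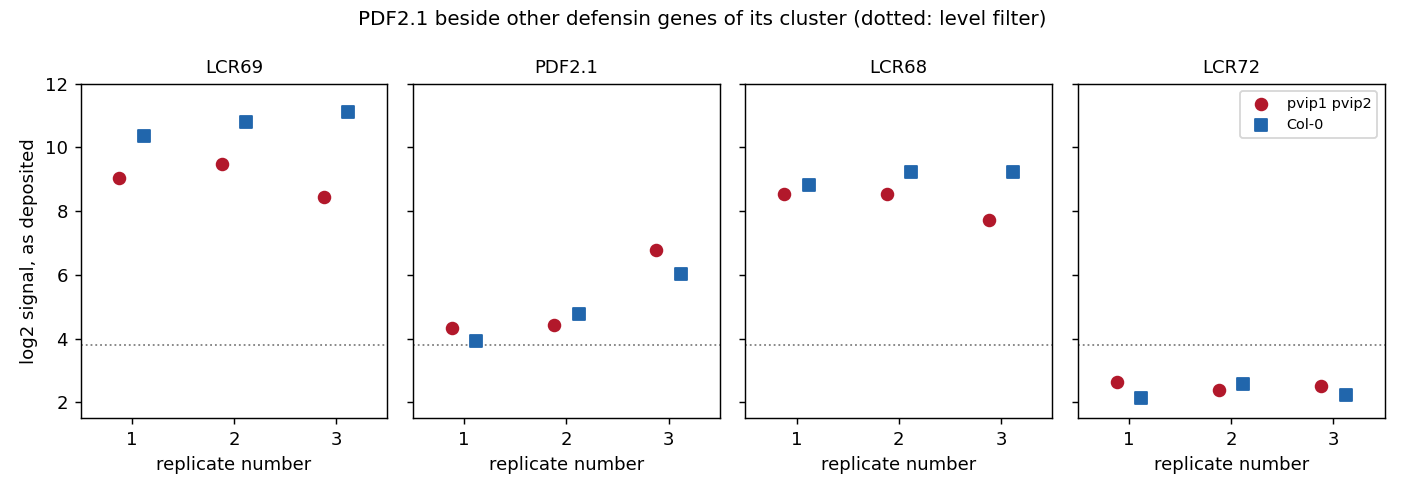
Deposited log2 signal (vertical axis) of LCR69, PDF2.1, LCR68 and LCR72 by replicate number (horizontal axis), with circles for pvip1 pvip2, squares for Col-0 and a dotted line at 3.81. In the mutant PDF2.1 is highest in replicate 3, at 6.79, where LCR69 and LCR68 are lowest, at 8.44 and 7.71. In Col-0 PDF2.1 and LCR69 are both highest in replicate 3, at 6.04 and 11.10. Heights of different probe sets are not comparable.

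Genes next to AT5G40450 and AT1G74250 had smaller gaps. Among up to 2 protein-coding genes on either side in the TAIR10.1 gene table, 4 had a named probe set beside these genes, with gaps from -0.20 to -0.01 in pvip1 pvip2 and from -0.27 to 0.10 in Col-0. AT1G74240, the gene before AT1G74250, had gaps of -0.05 and -0.14, and AT5G40460, the gene after AT5G40450, had gaps of -0.20 and -0.27. The 2 named neighbours of AT1G69030 lay below the level filter of 3.81 on every array. AT1G69020 had gaps of 0.16 in pvip1 pvip2 and -0.53 in Col-0, and AT1G69050 had gaps of 0.11 and 0.31.

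To place the 4 genes among known programmes of the seedling, 27 lists of genes for light, time of day, stress, growth and cell types were drawn up, holding 450 loci. Only 59 of these have a probe set named with 1 gene here, and none of the 59 is among the 4 genes. Of 50 list genes above the level filter, 1 was lower and 3 were higher in replicate 1 than in replicates 2 and 3, and the median change was 0.18. Over all tested probe sets 0.418% were called lower and 1.82% higher, and the median change was -0.09. The gene called lower was COR27, at -1.24 (SE 0.20, adjusted p = 0.03165). The call held in 3 of the 6 fits with 1 array left out. It did not hold after removal of Col-0 replicate 1 (change -0.93), whose OBE1 signal goes against its label. Nor did it hold without pvip1 pvip2 replicate 1 (-1.54) or without Col-0 replicate 2 (-1.08).

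The other tested genes of the day cycle did not pass. GI, which peaks late in the day, stood at -0.15 (adjusted p = 0.6981) and RVE6, a morning factor, at 0.52 (adjusted p = 0.2907). COR28, the closest relative of COR27, had gaps of 0.17 in pvip1 pvip2 and -0.80 in Col-0. HYH, a transcription factor of light signalling and the single named gene of that list, was brighter in replicate 1, with log2 signals of 5.34, 3.499 and 2.53 in the mutant and 4.05, 2.94 and 2.95 in Col-0. Its gaps were 2.32 and 1.11, but its mean lay under the level filter and it was not tested. None of 11 tested genes of photosynthesis was called, with a median of 0.32, none of 4 of cold, drought and abscisic acid, with a median of 0.72, none of 7 of wall expansion, with a median of -0.02, and none of 3 of the cell cycle, with a median of -0.03. The single tested heat shock gene, HSP17.6B, had its highest mutant value, 5.88, in replicate 2, and gaps of -0.87 and -0.19. In Col-0 it stood at 3.02, 2.97 and 3.47, with replicate 2 lowest. HSP22, the other named heat shock gene, lay between 2.89 and 3.28 on all arrays. AT1G74250, AT5G40450 and AT1G69030 had their highest mutant value in replicate 2, the array with the highest median, 4.682. AT1G74250 and AT5G40450 reached the level limit of 5 only on that array, so their peak there was partly selected by the rule. The share of all probe sets with their peak on that array was not counted, and a link of these genes to heat shock was not tested. Genes called higher were the anthocyanin enzymes DFR at 1.55 (adjusted p = 0.02166) and UF3GT at 1.05 (adjusted p = 0.03313) and the auxin-conjugating enzyme GH3.5 at 1.02 (adjusted p = 0.04417). Leaving out the array labelled Col-0 replicate 1 ended each of these 3 calls, with adjusted p values of 0.08993, 0.1834 and 0.221 in that order. So did leaving out pvip1 pvip2 replicate 1 (0.09681, 0.1987 and 0.1885) or replicate 2 (0.05029, 0.1066 and 0.1172), and for UF3GT also Col-0 replicate 2 (0.08582). With 1 array left out the changes themselves ran from 1.396 to 1.703 for DFR, from 1.002 to 1.109 for UF3GT and from 0.8777 to 1.169 for GH3.5. With replicates 2 and 3 treated as 1 level, the adjusted p was 0.1047 for DFR and 0.1542 for GH3.5. The call of GH3.5 was also lost without a level filter (0.05145), without a variance trend (0.06323) and after adding 64 to the linear signal (0.06006). Of the markers of other tissues, 3 of 10 root genes, 3 of 4 stomatal genes and 1 of 11 vascular genes had a named probe set. The single tested root gene, PYK10, was not called, nor were the stomatal and vascular genes. EXPA7 and EXPA18, expansins of root hair cells, were below the level filter on their mean and not tested, and their highest values, 4.29 and 4.23, were in pvip1 pvip2 replicate 2, against 3.102 to 3.63 elsewhere. Markers of seed, flower and epidermis had no named probe set, nor did the lists of salicylate defence, nitrate, phosphate, or gibberellin and brassinosteroid. The part of any of these programmes in the gaps of the 4 genes was not tested.

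**Figure D4:**
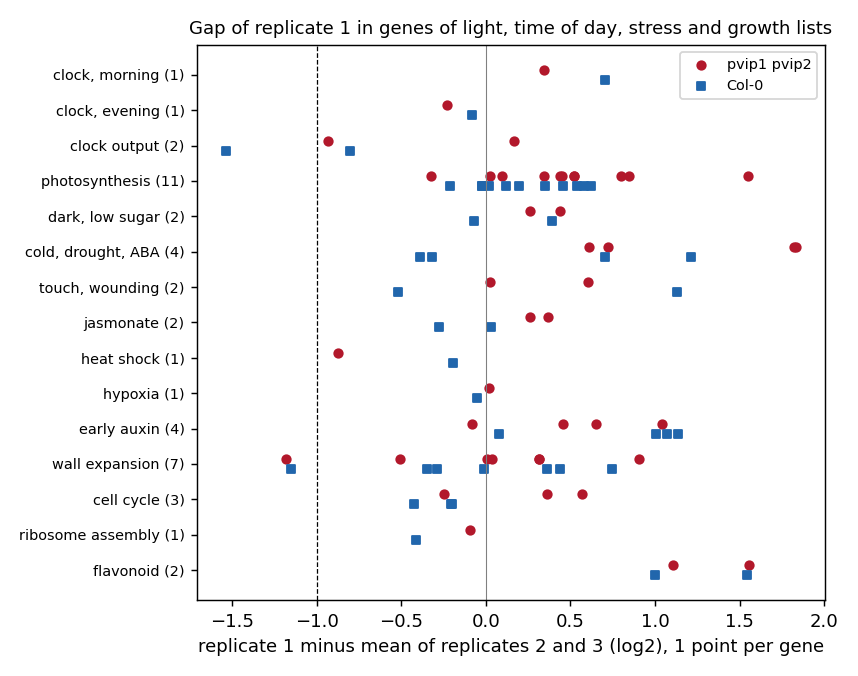
Gap of replicate 1 in log2 units (horizontal axis) for each tested gene of 15 lists (vertical axis, number of genes in brackets), with circles for pvip1 pvip2, squares for Col-0 and a dashed line at -1. No gene lies at or beyond -1 in both genotypes: the wall expansion points left of the line are XTH18 in the mutant, at -1.18, and XTH19 in Col-0, at -1.15. COR27, in the clock output list, comes closest, at -0.93 and -1.54.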

How the data were processed

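RNA was measured on 6 single-colour Affymetrix ATH1 arrays. The authors deposited 1 log2 value per array for 22810 probe sets. Their summarising, background correction and normalization were not given in the sources used here, and GCOS is named, with no version, per the submitters' processing notes. Settings of each array run were read for station and module as other values in the deposited files, per the file headers. Precision is limited by the number of arrays.

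The 64 control probe sets were left out. Names came from the platform annotation, updated through TAIR10.1 for 13436 of 13513 probe sets with 1 gene, while 503 have several and 8730 are unnamed here. No coordinates are given, since the build of the annotation is unknown here. The fits kept the 13648 probe sets whose mean reached the 40th percentile, 3.81, and used limma 3.58.1 in R 4.3.3 (eBayes with a trend, two-sided, Benjamini-Hochberg under 0.05), tested on simulated data. Genotypes were compared without the replicate number and again with it as a block, and replicate numbers with genotype as a term. Deviations from the genotype mean correlated between same-numbered arrays at r = 0.539, 0.312 and 0.121 across probe sets, so the numbers were taken to pair the samples. For genotypes compared without the replicate number, p-values measure the spread between samples that the labels call biological replicates. For replicate numbers, and under the replicate block, they measure how far the genotypes disagree over the replicate numbers, with 1 array per number and genotype. Promoter motifs were planned but not analysed here. With 4 members all were named, and list genes were named where called or as examples. The members and lists were chosen with earlier results of these data known.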

Additional observations from a re-analysis of the deposited data

Results flagged for a closer look

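For 3 of the 4 genes replicate 2 minus replicate 3 had opposite signs in the genotypes, though for AT1G74250 the Col-0 value was close to 0. Each value rests on 1 array per replicate number and genotype, and the difference between the genotypes was not tested. AT5G40450 and AT1G74250 reached the level limit of 5 only in pvip1 pvip2 replicate 2, so their mutant values here are partly selected by the rule. The share of all probe sets with opposite signs was not counted. Replicate 2 minus replicate 3 was larger in pvip1 pvip2 than in Col-0 by 1.38 for AT5G40450 (0.82 and -0.56), by 1.37 for AT1G74250 (1.32 and -0.05) and by 0.70 for AT1G69030 (0.52 and -0.18). Groups of 3 arrays are too small for a check of single outlying arrays.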

How the results depend on the processing

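The number of genes chosen, 4, was 25 with a gap of 0.8, 2 with a highest value of at least 6, 0 after adding 64 to the linear signal (which shrinks differences at low signal by construction), and between 9 and 33 when replicate 1 was set against replicate 3 or replicate 2 alone, with 2 of the 4 kept each time. It was 9 in pvip1 pvip2 alone, an alternative chosen after seeing the data, and 3 or 4 with array medians set equal or quantile normalization. The genotype count of 2803 was 1826 with a filter at the 60th percentile, 4129 with the replicate block, and 1654 to 2741 with 1 array left out. The 2 calls between replicates 2 and 3 were 4 with the 60th percentile, 0 without a variance trend, 0 after adding 64, and 0 to 60 with 1 array left out. The 306 calls of replicate 1 were 594 with array weights and 98 to 1787 with 1 array left out. Members called between replicates 2 and 3 were 0 to 1 with 1 array left out.

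The genotype change turned sign, never called, for AT5G40450 at -0.00576 with medians set equal, at -0.4748 without pvip1 pvip2 replicate 2, at -0.06511 without pvip1 pvip2 replicate 3 and at -0.4146 without Col-0 replicate 1. It did so for PDF2.1 at -0.5335 without pvip1 pvip2 replicate 3 and at -0.2263 without Col-0 replicate 1, and for AT1G74250 at -0.02637 without pvip1 pvip2 replicate 2 and at -0.02401 without Col-0 replicate 1. With 1 array left out it reached 0.5601, 0.8386 and 0.8341 at most for AT5G40450, PDF2.1 and AT1G74250. Replicate 2 minus replicate 3 turned sign without pvip1 pvip2 replicate 2 or 3 for AT5G40450 (-0.4846 and -0.2865, at most 0.7463) and AT1G69030 (-0.04766 and -0.1395, at most 0.4762). Leaving out Col-0 replicate 1 lowers the genotype change by construction, since the rule asked for a low value on it. The cause of the other sign turns was not tested. The replicate block changed no call of the 4 genes. Signals near background limit the gaps of AT5G40450 and AT1G74250.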
